A study of Homo sapiens with 18 samples.

Results

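The gene set comprised 8 surface antigens that are used to diagnose chronic lymphocytic leukemia (CLL) or to target it with antibodies: CD5, MS4A1 (CD20), CD52, CD37, CD200, ROR1, CD24 and CD27. They were taken by their gene symbols as 8 of the 56609 rows of the counts table, and all 8 were among the 31872 genes that had at least 10 counts summed over the libraries and were tested. RNA was sequenced from the CLL cell lines HG3, MEC2 and PCL12, all EBV-positive, left unstimulated or exposed for 4 h to 2.5 µg/ml CpG-ODN2006, a synthetic oligonucleotide that activates the endosomal DNA receptor TLR9. There were 3 samples in each of the 6 groups. According to the study, HG3 and PCL12 carry unmutated immunoglobulin heavy chain variable genes and MEC2 carries mutated ones. The labels number the samples but do not say whether replicates came from separate cultures, so the p-values below measure the spread between these samples, which may be technical. Bulk RNA cannot tell fewer cells that carry a transcript from less of that transcript per cell.

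The 18 libraries held 20382943 to 67308932 counts. A count of 3, taken as the lower limit of what could be measured, corresponded to 0.0429 to 0.155 CPM, the unit used below, which are counts scaled to the same effective library total in every library. In 2 libraries a large share of the counts came from mitochondrial genes: 20.2% in HG3 unstimulated replicate 2 and 19.7% in MEC2 CpG replicate 2, against 2.82% to 9.28% in the other 16. The PCL12 libraries were not alike. Of the transcripts well expressed in MEC2, 45 were nearly missing from PCL12 replicate 1 by the choice of those genes (median 2.26% and 2.36% of the MEC2 level after CpG and without it), and they stood at a median of 29.0% to 31.3% of the MEC2 level in PCL12 replicates 2 and 3. Whether these PCL12 libraries also held RNA of MEC2 was not tested, and it bears on every PCL12 mean and on the comparison of MEC2 with PCL12. The values of PCL12 replicate 1 are therefore also given apart. All 12 B-cell markers of a fixed list reached a mean of 1 CPM in every group of MEC2 and PCL12 and 11 of 12 did in HG3, where VPREB3 fell short, with sums of 1676 to 3489 CPM per library. Of the T-cell markers, 12 of 13 had a row and 2 to 4 reached 1 CPM, with sums of 85.5 to 239 CPM, and of the 8 monocyte markers 0 to 2 did, with sums of 1.12 to 12.7 CPM. The part of these cell types in the results below was not tested.

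CLL cells are B cells that carry CD5, a scavenger receptor-like protein otherwise typical of T cells, together with CD200 and the orphan receptor ROR1, while the B-cell antigens CD20, CD37 and CD52 are the sites at which therapeutic antibodies bind. CD27, a receptor of the TNF receptor family, marks memory B cells and binds CD70, and CD24 is a small, heavily glycosylated protein anchored in the membrane by a lipid. Flow cytometry panels combine several of these proteins because no single antigen defines the disease.

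In unstimulated cells the lines differed mainly between HG3 and the other two. CD5, ROR1 and CD200 were higher in HG3 than in MEC2 and in PCL12, CD37 was higher in HG3 than in PCL12, and CD27 was lower in HG3 than in either. MS4A1, CD52 and CD24 passed the test in no comparison of lines. By the quasi-likelihood test of edgeR, with p adjusted after Benjamini and Hochberg over all tested genes and called at an adjusted p under 0.05, MEC2 differed from HG3 in 4 of the 8 antigens, 1 higher and 3 lower in MEC2, where 4.81% of all genes were called higher and 4.97% lower. PCL12 differed from HG3 in 5 of 8, 1 higher and 4 lower, where 4.87% of all genes were called higher and 4.57% lower. Between MEC2 and PCL12, 0 of 8 were called, where 0.524% of all genes were higher in MEC2 and 1.53% lower. In that last comparison, 4 antigens had an unadjusted p under 0.05, DESeq2 called 1 and limma-voom 0. With PCL12 replicate 1 as the only PCL12 library, 2 of the 5 calls between PCL12 and HG3 held, those of CD5 and CD27, and MEC2 and PCL12 still differed in 0 of 8, where CD5 came closest (-5.27 ± 1.27, edgeR adjusted p = 0.0631). The lone library is assumed in that fit to vary like the other groups.

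**Figure D1:**
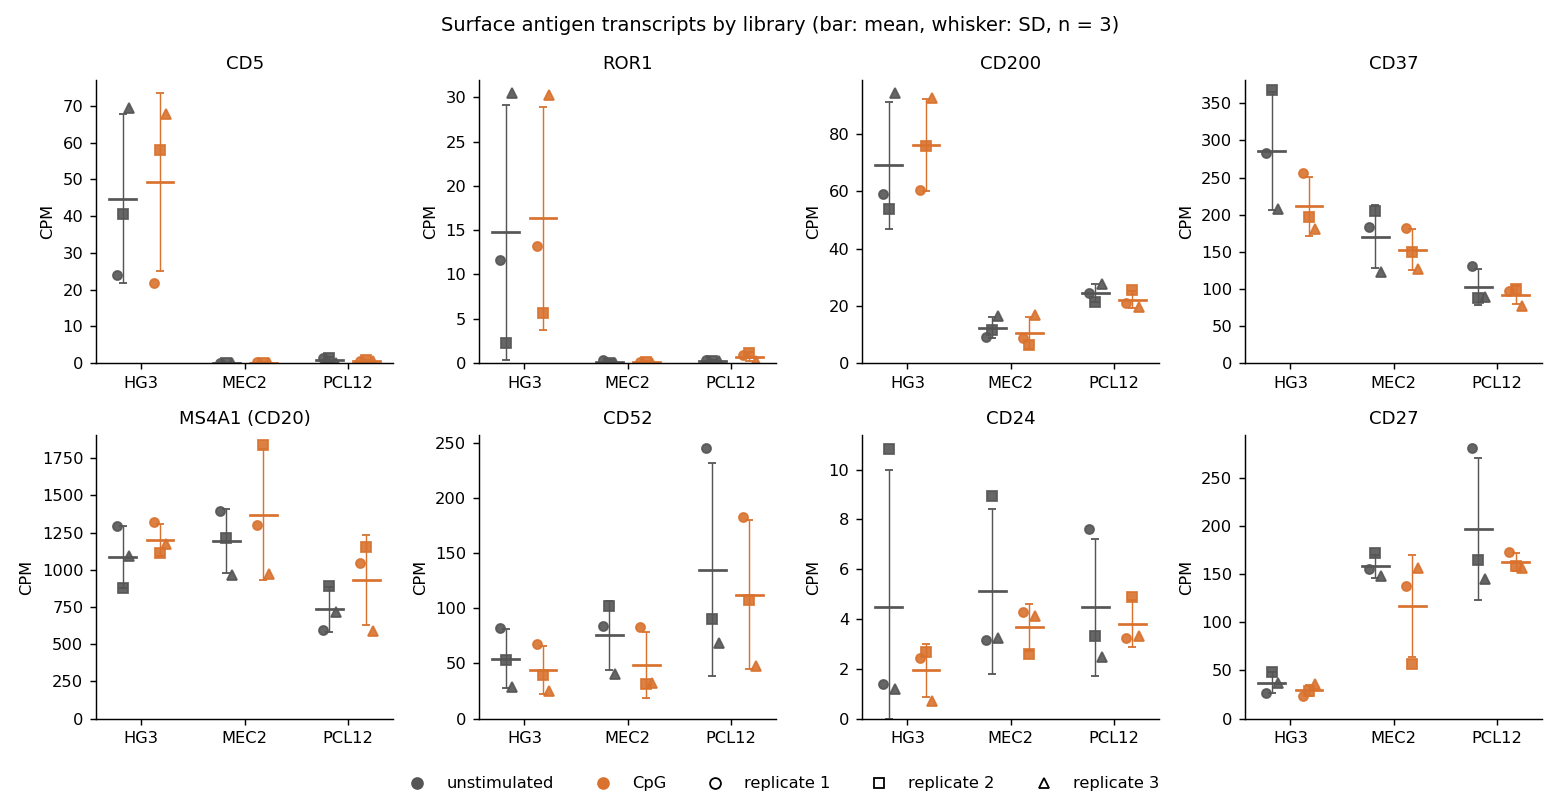
Level of each antigen in CPM (linear axis from 0, a scale of its own in each panel) in every library of the 3 lines, unstimulated in grey and after 4 h of CpG in orange, with the marker giving the replicate number, the bar the mean and the whisker the SD of 3 libraries (cut at 0 where the SD exceeds the mean). CD5, ROR1 and CD200 stood highest in HG3, CD27 lowest in HG3, and in every panel the grey and orange points of a line overlapped.

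CD5 (chr11:61102489-61127852, plus strand, GRCh38) had 24.1, 40.5 and 69.6 CPM in unstimulated HG3 replicates 1, 2 and 3, a mean of 44.7 ± 23.0 CPM (SD, n = 3). In MEC2 the same gene received 1, 0 and 2 counts, each fewer than the limit of 3 counts. In PCL12 it had 1.35, 1.25 and 0.0929 CPM (42, 35 and 4 counts), so the groups of all 3 lines were apart from each other. The fitted log2 difference was -10.32 ± 1.24 (SE) for MEC2 against HG3 (edgeR adjusted p = 4.5e-05). For PCL12 it was -5.67 ± 0.91 (edgeR adjusted p = 0.000614). The former value depends on how 3 counts are fitted, and it moved to -11.11 without MEC2 unstimulated replicate 3, while the latter moved to -5.08 without PCL12 unstimulated replicate 3. Summed over replicates, 4527 counts in HG3 stood against 3 in MEC2, a ratio of CPM of 1386 (95% interval 474 to 6723, exact and for counting error only). Against the 81 counts in PCL12 the ratio was 55.6 (44.6 to 70.1). The 24.9-fold ratio of PCL12 over MEC2 (8.23 to 123) rested on the same 3 counts, and the fitted difference of -4.65 ± 1.27 missed the threshold (edgeR adjusted p = 0.0904). It passed without PCL12 unstimulated replicate 3, the library with 4 counts (adjusted p = 0.00693). With PCL12 replicate 1 alone, the log2 difference of CD5 from HG3 was -5.04 ± 1.26 and the call was kept (adjusted p = 0.0429).

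ROR1 (chr1:63774017-64181498, plus strand) encodes a receptor of the tyrosine kinase family that binds Wnt5a and is made mostly in the embryo. It had 11.6, 2.22 and 30.5 CPM in unstimulated HG3, 0.372, 0 and 0.0285 CPM in MEC2 (13, 0 and 1 counts) and 0.353, 0.250 and 0.209 CPM in PCL12. All HG3 libraries were above all others, although they varied 13.7-fold among themselves, and MEC2 and PCL12 overlapped. The lowest HG3 value belonged to the library rich in mitochondrial counts. ROR1 was lower in MEC2 by a log2 value of -6.67 ± 1.20 (edgeR adjusted p = 0.00115) and in PCL12 by -5.77 ± 1.13 (adjusted p = 0.00243). The size of these differences depended on single libraries: without HG3 unstimulated replicate 3 they were -5.59 and -4.67, and without MEC2 unstimulated replicate 1 the former was -9.49. The difference of PCL12 replicate 1 alone from HG3 was -5.38 ± 2.08 and no longer called (adjusted p = 0.269). An RNA from the opposite strand, ROR1-AS1 (chr1:64094379-64171342, minus strand), had mean levels of 2.38, 0.0912 and 0.0196 CPM in HG3, MEC2 and PCL12. The paper names a stranded reverse protocol, but how the counting treated strand is not given in the sources used here. Reads where ROR1 and ROR1-AS1 overlap may therefore have been counted for the wrong gene or left out.

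CD200 (chr3:112332347-112362812, plus strand), an immunoglobulin superfamily protein that restrains myeloid cells through the receptor CD200R1, had 59.0, 53.8 and 94.5 CPM in HG3, 9.17, 11.6 and 16.4 CPM in MEC2 and 24.6, 21.4 and 27.8 CPM in PCL12. The 3 groups did not overlap, in the order HG3, PCL12, MEC2. CD200 was 5.57-fold lower in MEC2 than in HG3 (log2 difference -2.48 ± 0.33, edgeR adjusted p = 6.8e-06) and 2.81-fold lower in PCL12 than in HG3 (-1.49 ± 0.32, adjusted p = 0.00215). The step from PCL12 to MEC2, -0.99 ± 0.32, was not called (adjusted p = 0.132). It was called in 3 of 9 alternative fits, and its size ran from -1.03 to -0.97 over the 9. With PCL12 replicate 1 alone the difference from HG3 had nearly the same size, -1.48 ± 0.53, and was not called (adjusted p = 0.144).

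The bases before the start of ROR1 and CD200 are shown, chosen after their values were seen, because these genes ran together over the lines, and those of CD27 because it ran the opposite way. Each run is 250 bases that end just before the RefSeq start (GRCh38.p14, plus strand), and capitals mark matches on either strand to the searched motifs. These were the TATA box with the letters TATAAA, the CCAAT box, the GC box with the letters GGGCGG, the octamer ATTTGCAT of B-cell genes, the E-box form CAGGTG, the ETS core form GAGGAA, the AP-1 motif TGANTCA and the NF-κB motif. RefSeq's table held entries for 5 of the 8 antigens, and those of ROR1, CD200, CD27 and CD52 were searched, whereas CD24, which had several, was not.
ROR1, chr1:63773767-63774016: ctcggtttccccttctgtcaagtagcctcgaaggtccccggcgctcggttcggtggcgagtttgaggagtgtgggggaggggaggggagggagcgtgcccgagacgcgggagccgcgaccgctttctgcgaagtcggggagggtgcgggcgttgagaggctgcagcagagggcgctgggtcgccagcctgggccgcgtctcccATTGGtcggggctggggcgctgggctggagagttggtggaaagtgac
CD200, chr3:112332906-112333155: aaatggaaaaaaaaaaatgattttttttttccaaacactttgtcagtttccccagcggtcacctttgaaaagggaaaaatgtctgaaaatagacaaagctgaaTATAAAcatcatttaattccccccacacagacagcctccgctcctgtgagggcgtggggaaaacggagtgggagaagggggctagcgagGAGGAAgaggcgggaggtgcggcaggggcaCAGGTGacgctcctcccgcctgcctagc
CD27, chr12:6443642-6443891: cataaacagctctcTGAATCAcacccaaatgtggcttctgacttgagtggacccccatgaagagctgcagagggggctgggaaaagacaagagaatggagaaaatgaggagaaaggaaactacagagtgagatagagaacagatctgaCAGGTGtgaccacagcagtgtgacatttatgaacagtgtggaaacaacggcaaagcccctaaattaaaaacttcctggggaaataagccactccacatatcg
The ROR1 window had 69.2% G and C with 24 CG pairs and 1 match to CCAAT, which 32.0% of the 35116 windows in the table hold. The CD200 window, which lies inside the GENCODE span of the gene, had 50.0% G and C with 9 CG pairs and 1 match each to TATAAA (10.7% of all windows), GAGGAA (23.6%) and CAGGTG (17.5%). The CD27 window had 46.0% G and C with 2 CG pairs and 1 match each to TGANTCA (6.57%) and CAGGTG. It ended at 6443891 and did not adjoin the GENCODE start of CD27 at 6444955. The window also lay inside the GENCODE span of CD27-AS1. The median window had 58.0% G and C and 11 CG pairs, so ROR1 lay above and CD200 and CD27 below it on both counts. None of these windows, nor that of CD52, held a match to the NF-κB motif, which 5.21% of all windows have. A match is a run of letters and not a measured binding site.

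CD37 (chr19:49335171-49343335, plus strand), a tetraspanin of mature B cells, had 283, 367 and 208 CPM in HG3, 183, 205 and 123 CPM in MEC2 and 131, 88.1 and 88.9 CPM in PCL12. The lines followed the order HG3, MEC2, PCL12 in their means, with HG3 apart from both and MEC2 overlapping PCL12. CD37 was 2.79-fold lower in PCL12 than in HG3 (log2 difference -1.48 ± 0.27, edgeR adjusted p = 0.000334). The difference of MEC2 from HG3, -0.75 ± 0.26, missed the threshold (adjusted p = 0.0737), and it passed without HG3 unstimulated replicate 3 (-0.93, adjusted p = 0.0323). The highest value came from the HG3 library rich in mitochondrial counts, without which the difference of MEC2 from HG3 was -0.51 (adjusted p = 0.285 by edgeR). Replicate 1 of PCL12 alone stood at -1.11 ± 0.44 against HG3 and was not called (adjusted p = 0.205).

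CD27 (chr12:6444955-6451718, plus strand) ran the other way, with 26.6, 48.2 and 36.9 CPM in HG3, 155, 172 and 148 CPM in MEC2 and 281, 164 and 145 CPM in PCL12. Every MEC2 and PCL12 library was above every HG3 library, and MEC2 and PCL12 overlapped. CD27 was 4.25-fold higher in MEC2 (log2 difference 2.09 ± 0.32, edgeR adjusted p = 4.6e-05) and 5.30-fold higher in PCL12 (2.41 ± 0.32, adjusted p = 7.5e-06) than in HG3. PCL12 replicate 1 had the highest level of all, and alone it gave a difference of 2.93 ± 0.41 from HG3 (adjusted p = 2.0e-05). MEC2 and PCL12 differed by -0.32 ± 0.31 (adjusted p = 0.776). CD27-AS1 (chr12:6439001-6451607, minus strand) overlaps the gene and had mean levels of 14.6, 7.90 and 7.68 CPM in HG3, MEC2 and PCL12, so the order of HG3 and the other lines was the reverse of that of CD27. Reads where this pair overlaps may likewise have been counted for the wrong gene or left out.

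MS4A1 (chr11:60455846-60470752, plus strand), the gene of the CD20 antigen, had 1292, 875 and 1094 CPM in HG3, 1394, 1215 and 966 CPM in MEC2 and 594, 894 and 715 CPM in PCL12. HG3 overlapped both other lines, and every MEC2 library was above every PCL12 library. The log2 differences were 0.13 ± 0.28 for MEC2 against HG3, -0.57 ± 0.28 for PCL12 against HG3 and 0.70 ± 0.28 for MEC2 against PCL12. None passed the test (edgeR adjusted p = 0.869, 0.238 and 0.308). The 95% interval of MEC2 against HG3 ran from -0.44 to 0.71, which does not exclude differences within these bounds.

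CD52 (chr1:26317958-26320523, plus strand), a short lipid-anchored glycopeptide and the target of alemtuzumab, had 81.9, 53.0 and 28.4 CPM in HG3, 83.6, 102 and 40.9 CPM in MEC2 and 245, 90.5 and 68.6 CPM in PCL12. All lines overlapped, and replicates of a line varied 2.49-fold to 3.58-fold. In each line replicate 3 was the lowest. The log2 difference of PCL12 from HG3 was 1.31 ± 0.64 (edgeR adjusted p = 0.254). The same difference was 1.23 ± 0.27 and called when the replicate number was a block common to all lines (adjusted p = 0.00245), although nothing in the labels ties equal numbers of different lines together. PCL12 replicate 1 alone stood 2.18 ± 0.65 above HG3 (adjusted p = 0.0887).

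CD24 (chr6:106969831-106975627, minus strand) had 1.38, 10.8 and 1.18 CPM in HG3, 3.15, 8.94 and 3.22 CPM in MEC2 and 7.60, 3.32 and 2.48 CPM in PCL12. The means, 4.47 ± 5.51, 5.10 ± 3.32 and 4.47 ± 2.74 CPM (SD, n = 3), each rested on 1 high library. The log2 differences from HG3 were 0.20 ± 0.68 for MEC2 and 0.014 ± 0.68 for PCL12 (edgeR adjusted p = 0.954 and 1). Without HG3 unstimulated replicate 2, which was rich in mitochondrial counts, they were 2.00 and 1.82 and still not called (adjusted p = 0.0571 and 0.0861). CD24 has near-identical processed copies elsewhere in the genome, and reads that fit several copies may have been lost or split, so its level is uncertain.

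**Figure D2:**
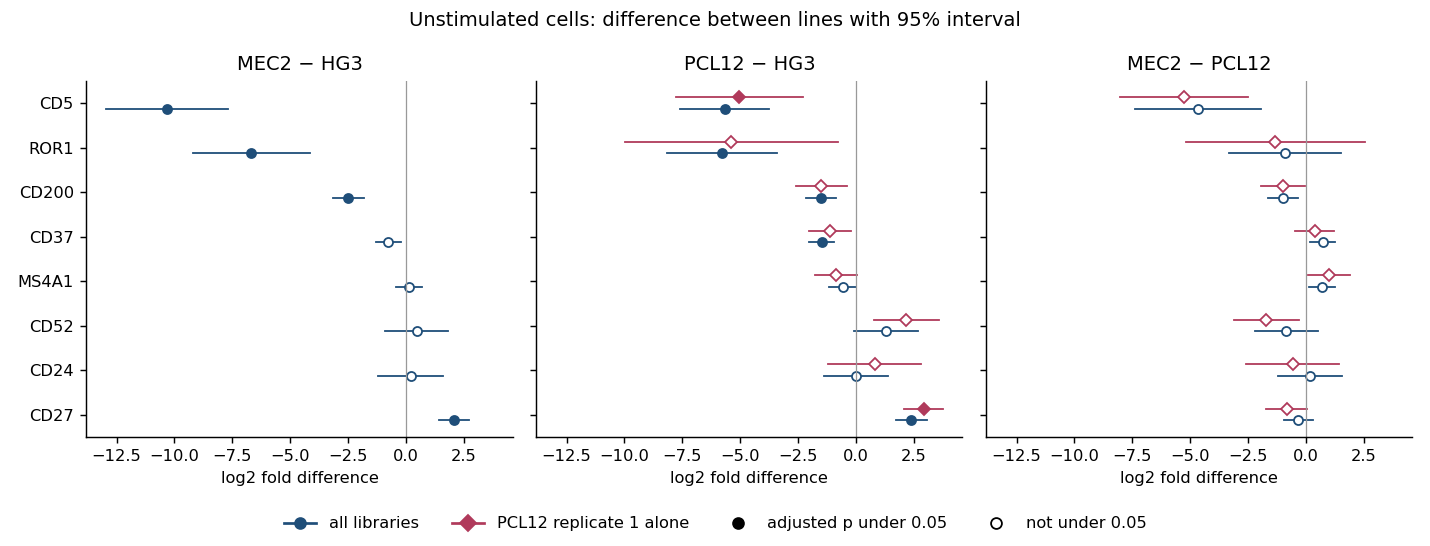
Log2 difference between unstimulated lines for each antigen with its 95% interval, from all libraries (blue circles) and with PCL12 replicate 1 as the only PCL12 library (red diamonds), filled where the edgeR adjusted p was under 0.05. CD5, ROR1 and CD200 lay left of 0 and CD27 right of 0 in both comparisons with HG3, and with PCL12 replicate 1 alone only CD5 and CD27 kept a filled symbol.

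Of 5 genes that encode a binding partner of an antigen (CD70, SIGLEC10, SELP, CD200R1 and WNT5A), 2 were higher and 1 lower in MEC2 than in HG3, with the same count in PCL12 against HG3 and 0 calls between MEC2 and PCL12. The shares of all genes called higher and lower in these comparisons were 4.81% and 4.97%, 4.87% and 4.57%, and 0.524% and 1.53%. The median log2 difference of the 5 was 1.84 in MEC2 and 1.22 in PCL12, and that of all genes was 0 in both. These medians depend on genes near the limit of 3 counts, since SELP had 1 count in unstimulated MEC2 and none in the other unstimulated lines, and WNT5A, which gave the PCL12 median, had 0, 47 and 7 counts there. CD70, the ligand of CD27, had 174, 465 and 272 CPM in HG3, 126, 120 and 112 CPM in MEC2 and 127, 136 and 75.4 CPM in PCL12, with HG3 above the other lines in every library. CD70 was lower by -1.35 ± 0.32 in MEC2 (edgeR adjusted p = 0.00518) and by -1.43 ± 0.32 in PCL12 (adjusted p = 0.00319), the opposite direction of CD27. In PCL12 replicate 1 alone CD70 stood at -1.24 and lost its call (edgeR adjusted p = 0.210). CD200R1, the receptor of CD200, had 0.220, 0 and 0.210 CPM in HG3, 3.18, 4.49 and 5.73 CPM in MEC2 and 0.353, 0.891 and 1.95 CPM in PCL12. It was higher than in HG3 by 4.80 ± 0.85 in MEC2 (edgeR adjusted p = 0.000261) and by 2.75 ± 0.80 in PCL12 (adjusted p = 0.0258), where CD200 itself was lower. The lowest PCL12 value was that of replicate 1, and with this replicate alone the difference was 1.16 and not called (adjusted p = 0.744). SIGLEC10, an inhibitory receptor that binds CD24, had 2.04, 1.44 and 1.55 CPM in HG3, 6.76, 6.04 and 5.41 CPM in MEC2 and 32.3, 15.6 and 18.04 CPM in PCL12. It was higher by 1.84 ± 0.57 in MEC2 (edgeR adjusted p = 0.0379) and by 3.70 ± 0.60 in PCL12 (adjusted p = 0.000127), a call that held in PCL12 replicate 1 alone (4.27, adjusted p = 0.0009).

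**Figure D3:**
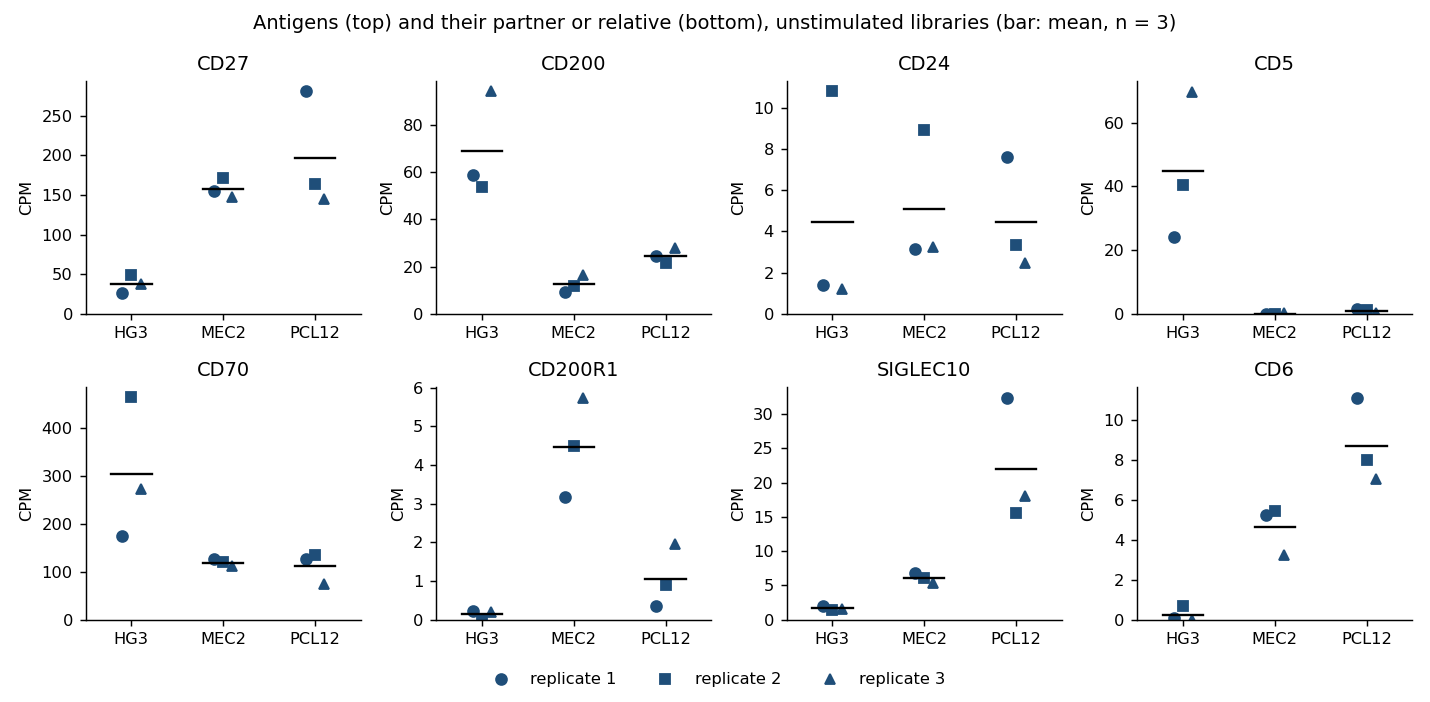
Unstimulated levels in CPM (linear axis from 0, a scale of its own in each panel) of 4 antigens in the upper row and, below each, the gene of its binding partner or, for CD5, of its relative CD6, with 1 point per library and the mean of 3 as a bar. CD27 and CD70, CD200 and CD200R1, and CD5 and CD6 ran in opposite directions between HG3 and the other lines.

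Of 19 relatives of the antigens (the CD5 relative CD6, other MS4A genes, receptor kinases near ROR1 and other tetraspanins), 17 were tested. In MEC2 against HG3, 1 was higher and 2 lower, in PCL12 against HG3 1 was higher and 1 lower, and in MEC2 against PCL12 0 were higher and 1 lower. Of all genes, 4.81% and 4.97% were called higher and lower in MEC2 than in HG3, 4.87% and 4.57% in PCL12 than in HG3, and 0.524% and 1.53% in MEC2 than in PCL12, so a single call among 17 genes is near the background of both comparisons with HG3. CD6, which shares its scavenger receptor domains with CD5, had 0.0659, 0.671 and 0 CPM in HG3, 5.24, 5.47 and 3.25 CPM in MEC2 and 11.1, 7.99 and 7.03 CPM in PCL12. It was higher by 4.48 ± 0.79 in MEC2 (edgeR adjusted p = 0.000244) and by 5.38 ± 0.81 in PCL12 (adjusted p = 3.5e-05), so the 2 genes ran in opposite directions. Among the tetraspanins, CD9 was lower in MEC2 (15.5 against 2.07 CPM in the means, log2 difference -2.93 ± 0.62, adjusted p = 0.00277). CD151 was lower in MEC2 (77.0 against 22.7 CPM, -1.76 ± 0.32, adjusted p = 0.000395) and in PCL12 (29.4 CPM, -1.39 ± 0.32, adjusted p = 0.00412). TSPAN33 was lower in MEC2 than in PCL12 (136 against 284 CPM, -1.06 ± 0.26, adjusted p = 0.0234). With PCL12 replicate 1 alone CD6 and TSPAN33 kept their calls and CD151 did not (edgeR adjusted p = 0.466). The median log2 difference of the relatives was -0.04, 0.27 and -0.35 in the 3 comparisons.

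Of 10 other antigens used in diagnosis, 2 were higher (CD38 and ITGAX) and 1 lower (FCER2) in MEC2 than in HG3, FCER2, CD38 and ITGAX were also called in these directions in PCL12, and 0 were called between MEC2 and PCL12. FCER2, which encodes CD23, had mean levels of 2134, 422 and 576 CPM in HG3, MEC2 and PCL12 (log2 differences -2.34 ± 0.35 and -1.89 ± 0.35, edgeR adjusted p = 4.1e-05 and 0.00044). CD38, an ectoenzyme used as a prognostic marker, had 18.7, 59.3 and 51.5 CPM (1.67 ± 0.25 and 1.46 ± 0.25, adjusted p = 3.5e-05 and 0.00017), and the integrin gene ITGAX had 1.13, 18.2 and 64.9 CPM (4.03 ± 1.06 and 5.87 ± 1.14, adjusted p = 0.0286 and 0.00452). Of 17 other antibody targets, which share 5 genes with the diagnostic list and CD70 with the partners, so that some calls count under both, 1 was higher and 3 lower in MEC2 than in HG3, 3 higher and 4 lower in PCL12 than in HG3, and 0 higher and 2 lower in MEC2 than in PCL12. Beside the counts of both lists, the shares of all genes called higher and lower were 4.81% and 4.97% in MEC2 against HG3. They were 4.87% and 4.57% in PCL12 against HG3, and 0.524% and 1.53% in MEC2 against PCL12. The share of the single higher call among the targets in MEC2 is again near the 4.81% of all genes. IL2RA, which encodes CD25, had 6.12, 2.10 and 41.9 CPM in HG3, MEC2 and PCL12, with a log2 difference of -4.32 ± 0.47 between MEC2 and PCL12 (adjusted p = 2.3e-06). CD47, the signal that restrains phagocytes, was higher in PCL12 than in HG3 (184 against 73.2 CPM, 1.33 ± 0.25, adjusted p = 0.000633). TNFRSF13B, a receptor for the survival factors BAFF and APRIL, was lower in MEC2 than in PCL12 (63.4 against 146 CPM, -1.21 ± 0.29, adjusted p = 0.0219), and lost this call against PCL12 replicate 1 alone (-1.46, adjusted p = 0.0622 by edgeR), where IL2RA kept it. With PCL12 replicate 1 alone the calls between PCL12 and HG3 numbered 2 higher and 0 lower among the diagnostic genes and 3 higher and 1 lower among the targets. FCER2 lost its call there with a log2 difference of -1.50 (edgeR adjusted p = 0.105). The medians of the log2 differences from HG3 were 0.42 and 0.31 for the diagnostic genes and -0.70 and -0.16 for the targets in MEC2 and PCL12.

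Over the 18 libraries, the share of the spread of log2 CPM that followed the cell line was 93.6% for CD5, 90.5% for CD200, 87.0% for CD27, 85.6% for ROR1 and 77.8% for CD37. It was 35.3% for CD52 and 20.3% for CD24, MS4A1 lay between CD37 and CD52, and the median of the 13991 genes that averaged 1 CPM or more was 38.2%. For CD52 the largest share, 51.0%, followed the replicate number within a line, and for CD24 it was 45.6%, against a median of 33.0%. The share of CpG within lines was between 0.264% (CD5) and 7.16% (MS4A1), and the median gene had 5.22%. The remainder was largest for CD24, at 29.2%.

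**Figure D4:**
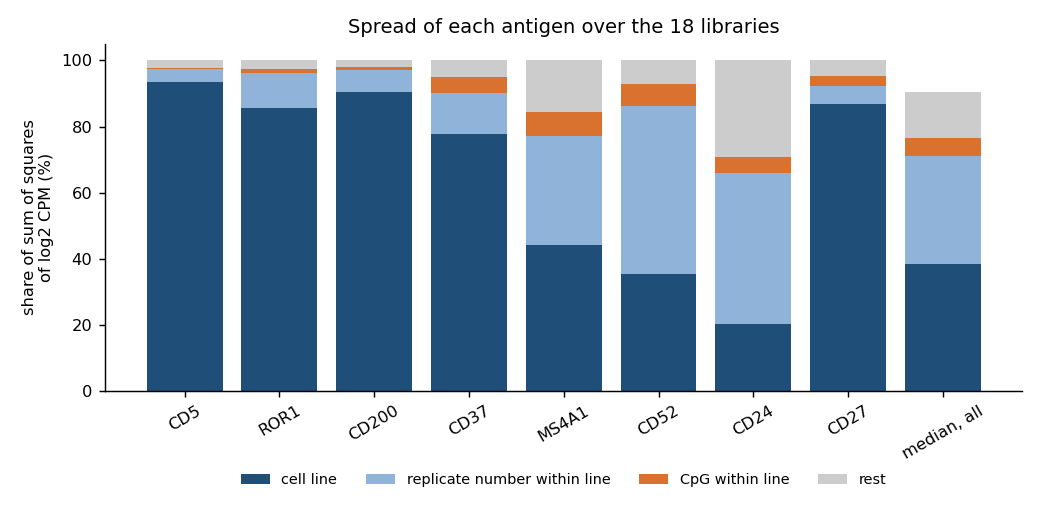
Share of the sum of squares of log2 CPM over the 18 libraries, in percent, that fell to the cell line, the replicate number within a line, CpG within a line and the rest, for each antigen and, in the last bar, the median of each share over 13991 genes (medians taken apart, so this bar does not reach 100). The cell line took most of the bar for CD5, ROR1, CD200, CD37 and CD27, and the replicate number took the largest part for CD52 and CD24.

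The pattern of each antigen over the 18 libraries was also compared with 13990 other genes by Pearson's r of log2 CPM, a description over libraries that share lines, replicates and depth. The most alike were AKR1C1 for CD5 (0.979), HIVEP3 for MS4A1 (0.910), HCST for CD52 (0.910), PPP1R11 for CD37 (0.948), OSTN-AS1 for CD200 (0.965), MACC1 for ROR1 (0.961), SLC39A4 for CD24 (0.824) and GSTP1 for CD27 (0.983). Within the set, CD5 and ROR1 (0.924), CD5 and CD200 (0.911) and CD200 and ROR1 (0.865) were the most alike, and CD27 ran against ROR1 (-0.811) and CD5 (-0.779). In MEC2 and PCL12 some of these values rest on counts near 0.

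After 4 h of CpG no antigen was called in any line. At an adjusted p under 0.05 with edgeR, 0 of 8 antigens were called in HG3, MEC2 and PCL12, where 0.00314%, 0.00314% and 0% of all genes were. With DESeq2 and with limma-voom the count was 0 of 8 in every line too, and the number of antigens with an unadjusted edgeR p under 0.05 was also 0. In PCL12, 665 genes of all kinds had an unadjusted p under 0.05 with edgeR, 318 with DESeq2, of which 1 passed the adjustment, and 1056 with limma-voom, of which 0 did. At the study's own thresholds (unadjusted P under 0.01 and a log2 fold change of at least 1 in size), 0 of 8 were called in each line, where 0.496%, 0.251% and 0.116% of all genes were. The study applied these thresholds to limma. It reported more genes in each line than the 158, 80 and 37 that passed in this edgeR fit, so 0 of 8 is not the study's own result. The stimulated and unstimulated libraries overlapped in all 24 combinations of antigen and line. Groups of 3 against 3 libraries often overlap without any change, and the share of all genes with overlap was not computed. This count therefore says little about the antigens. The fitted log2 fold changes ran from -1.18 (CD24 in HG3) to 2.19 (CD5 in MEC2), with 16 below 0 and 8 above. The response to CpG did not differ detectably between lines for any antigen, with 0 of 8 called in each of the 3 differences (0%, 0.00314% and 0% of all genes), and 0 with an unadjusted p under 0.05. DESeq2 and limma-voom also called 0 of 8 there.

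These counts come from the fit without pairs. By the series design a stimulated and an unstimulated sample belong to each replicate, and with the pairs of a line as a block edgeR still called 0 of 8 in each line at an adjusted p under 0.05, where 0.135%, 0.333% and 0.0471% of all genes were called in HG3, MEC2 and PCL12. The spread in this fit was mainly pooled over genes, so its p-values do not measure the spread of each gene's own pairs. The block gave an unadjusted p under 0.05 to CD37 in HG3 (edgeR adjusted p = 1), to CD52, CD5 and CD27 in MEC2 (edgeR adjusted p = 0.253, 0.593 and 0.743) and to ROR1 in PCL12 (edgeR adjusted p = 1). At the study's thresholds it called 1 antigen, CD5 in MEC2, where 0.731%, 0.555% and 0.242% of all genes passed in the 3 lines. That value, 2.16 ± 0.79, rested on 3 counts without CpG and 15 after it. In this fit the estimated response of CD5 in MEC2 stood above that in HG3 by 2.05 ± 0.83 and above that in PCL12 by 2.46 ± 0.86. Neither difference was called (edgeR adjusted p = 1 for both, unadjusted p = 0.0136 and 0.00444), and 14 of the 15 counts after CpG fell in replicate 1.

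In PCL12 replicate 1 alone the values after CpG were larger in size than over all PCL12 libraries for most antigens, and none was called. MS4A1 stood at 0.82 ± 0.52 against 0.34 over all libraries, CD27 at -0.70 ± 0.56 against -0.28, CD37 at -0.43 ± 0.50 against -0.17 and CD52 at -0.43 ± 0.87 against -0.26. CD24 stood at -1.24 ± 1.25 against -0.23, CD5 at -1.34 ± 1.22 against -0.55 and CD200 at -0.22 ± 0.60 against -0.16, while ROR1 was slightly smaller, 1.34 ± 1.96 against 1.42. The edgeR adjusted p was 1 for each in both fits.

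CD52 was lower after CpG in 8 of the 9 pairs of libraries with the same number, a pattern that 1.73% of all genes had. Its pairs went from 81.9 to 67.4, 53.0 to 39.5 and 28.4 to 25.1 CPM in HG3, from 83.6 to 83.4, 102 to 31.0 and 40.9 to 32.5 CPM in MEC2, and from 245 to 182, 90.5 to 108 and 68.6 to 47.4 CPM in PCL12. The exception was PCL12 replicate 2, and MEC2 replicate 1 differed by less than 1 CPM. The log2 fold changes were -0.31 ± 0.63, -0.62 ± 0.64 and -0.26 ± 0.63 in HG3, MEC2 and PCL12. The 95% interval in HG3 ran from -1.67 to 1.06. With the pairs as a block the values were -0.29 ± 0.21, -0.67 ± 0.21 and -0.24 ± 0.21. No line was called in that fit (edgeR adjusted p = 0.253 and unadjusted p = 0.00153 in MEC2). Its SE was nearly the same for other well expressed genes in MEC2, such as CD37 (0.20), CD27 (0.21) and MS4A1 (0.22). It thus reflected mainly a spread pooled over genes and not that of the CD52 pairs. Their log2 ratios in MEC2 were -0.0029, -1.71 and -0.33 in replicates 1, 2 and 3. Most of the change in MEC2 lay in replicate 2, whose stimulated library was rich in mitochondrial counts, and without the libraries rich in mitochondrial counts the value in MEC2 was -0.37.

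CD37 and CD27 were each lower after CpG in 7 of 9 pairs, and 6.83% of all genes were lower in 7 or more. CD37 had 256, 197 and 181 CPM in stimulated HG3, 182, 150.1 and 127 CPM in MEC2 and 96.8, 99.9 and 77.5 CPM in PCL12, with log2 fold changes of -0.44 ± 0.26, -0.15 ± 0.26 and -0.17 ± 0.26. In HG3 the value was -0.19 without the unstimulated library rich in mitochondrial counts. CD27 had 23.3, 28.9 and 35.6 CPM in stimulated HG3, 138, 57.2 and 156 CPM in MEC2 and 173, 158 and 156 CPM in PCL12. Its fold changes were -0.35 ± 0.31, -0.43 ± 0.31 and -0.28 ± 0.31 on the log2 scale. The value of CD27 in HG3 was -0.093 without the unstimulated library rich in mitochondrial counts. In MEC2 the single low value, 57.2 CPM, came from the stimulated library rich in mitochondrial counts, and without it the fold change was -0.10. The part of the mitochondrial share in these values was not tested.

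MS4A1 was higher after CpG in 7 of 9 pairs, as 5.9% of all genes were in 7 or more, with 1320, 1111 and 1171 CPM in stimulated HG3, 1299, 1842 and 974 CPM in MEC2 and 1048, 1155 and 589 CPM in PCL12. The log2 fold changes were 0.14 ± 0.28, 0.20 ± 0.28 and 0.34 ± 0.28 and none was called. The 95% interval in PCL12 ran from -0.23 to 0.92. In PCL12 replicate 1 the level went from 594 to 1048 CPM, and in MEC2 the highest value again belonged to the library rich in mitochondrial counts, without which the fold change was -0.068.

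CD200 and CD5 were lower in 5 of 9 pairs and ROR1 and CD24 in 4 of 9. CD200 had 60.3, 76.0 and 92.5 CPM in stimulated HG3, 8.60, 6.21 and 16.8 CPM in MEC2 and 21.1, 25.4 and 19.7 CPM in PCL12, and its fold changes lay between -0.24 and 0.14 on the log2 scale. CD5 had 21.9, 58.2 and 67.8 CPM in stimulated HG3 and 0.529, 0.824 and 0.482 CPM in PCL12. In stimulated MEC2 it received 14, 1 and 0 counts, so that 14 of the 15 counts fell in replicate 1, and the ratio to the 3 counts without CpG was 4.98 in CPM (95% interval 1.41 to 26.8, for counting error only). Its fitted fold change of 2.19 ± 1.55 became -0.83 without that library. ROR1 had 13.2, 5.66 and 30.2 CPM in stimulated HG3, near the unstimulated library of the same number in replicates 1 and 3 and above its 2.22 CPM in replicate 2. In PCL12 it had 0.901, 1.08 and 0.203 CPM against 0.353, 0.250 and 0.209 CPM without CpG, higher in replicates 1 and 2, with a log2 fold change of 1.42 ± 1.02 (edgeR adjusted p = 1, and 1 with the pairs as a block). CD24 had 2.43, 2.66 and 0.725 CPM in stimulated HG3, 4.29, 2.59 and 4.10 CPM in MEC2 and 3.22, 4.90 and 3.33 CPM in PCL12. Its largest fitted change, -1.18 ± 0.70 in HG3, became 0.63 without HG3 unstimulated replicate 2.

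**Figure D5:**
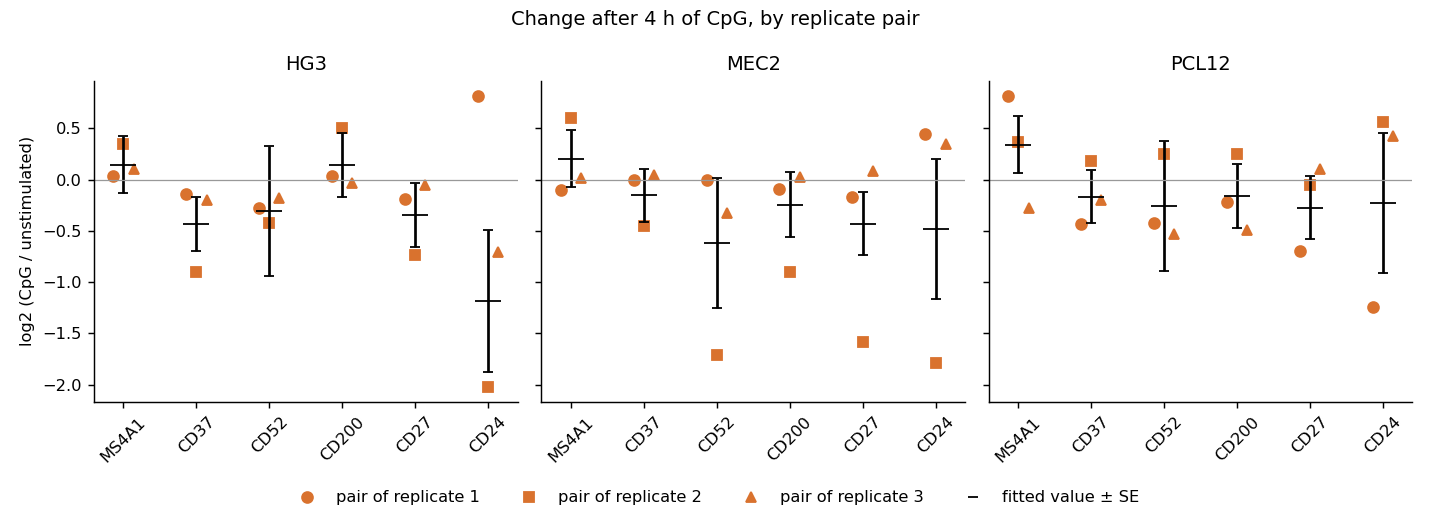
Log2 ratio of CPM after CpG to CPM without it, 1 orange point for each pair of libraries of a line with the same replicate number, and the fitted log2 fold change with its SE in black, for the 6 antigens measured well above the count limit in all lines. CD52 lay at or below 0 in 8 of 9 pairs, MS4A1 above 0 in 7 of 9, and the widest points of CD52 and CD27 were those of MEC2 replicate 2.

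None of the genes in the lists of binding partners, relatives, diagnostic antigens and antibody targets was called after CpG in any line with edgeR at an adjusted p under 0.05 in the fit without pairs. At the study's thresholds 1 target passed in MEC2 and 1 relative in HG3. IL2RA had 2.35, 2.57 and 1.37 CPM in unstimulated and 7.51, 6.01 and 4.49 CPM in stimulated MEC2, without overlap (log2 fold change 1.53, edgeR adjusted p = 1). ROR2, the closest relative of ROR1, had 2, 6 and 30 counts in unstimulated HG3, most of them in replicate 3, and 0 in every stimulated HG3 library.

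With the pairs as a block, 3 of the 17 antibody targets were called higher after CpG in MEC2 and no list gene in HG3 or PCL12. The same fit called 0.333% of all genes in MEC2, 0.135% in HG3 and 0.0471% in PCL12, in either direction. Its SE was mainly pooled over genes, as described for CD52, and does not measure the spread between the pairs of a single gene. IL2RA was higher by 1.53 ± 0.27 on the log2 scale (edgeR adjusted p = 4.7e-05). CD80, a costimulatory ligand for T cells, went from 56.1, 57.9 and 75.6 to 119, 156 and 96.0 CPM in MEC2 (0.95 ± 0.21, adjusted p = 0.00316 by edgeR). CD40, the receptor through which T cells activate B cells, went from 164, 149 and 125 to 309, 323 and 190 CPM (0.88 ± 0.21, adjusted p = 0.0103 by edgeR). Each of these genes rose in all 3 pairs of MEC2 without overlap of the groups. All of them were also higher in the 3 pairs of PCL12, and CD80 in the 3 pairs of HG3, where the groups overlapped and none was called. These calls rest on pairs that are not the most alike in MEC2, where stimulated replicate 1 correlated more with unstimulated replicate 2 (0.449) and stimulated replicate 2 with unstimulated replicate 1 (0.388) than with their own (0.189 and -0.0133). In HG3, ITGAX (-1.05) and SIGLEC10 (-1.23) passed the study's thresholds with the block and not the adjustment (edgeR adjusted p = 0.345 and 0.373). ITGAX went from 69, 32 and 9 to 53, 0 and 10 counts in replicates 1, 2 and 3, and SIGLEC10 from 93, 28 and 59 to 31, 2 and 65. Both rose in replicate 3, and the unstimulated library of replicate 2 was the one rich in mitochondrial counts.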

How the data were processed

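RNA was extracted with a Promega kit and made into Lexogen QuantSeq libraries per the labels, whereas the paper names a Qiagen kit and a stranded library protocol. The deposited values are counts of reads per gene symbol, without normalization by the authors, in 1 table of 18 libraries. Their processing notes name FastQC, MultiQC, Trimmomatic, STAR and featureCounts, with the human genome hg38 as build. The strand setting of the counting, the annotation and the treatment of duplicate reads are not given in the sources used here. PCR copies counted as reads make the intervals for counting error too narrow.

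The counts of genes whose sum over all libraries reached 10 were fitted with TMM scaling in edgeR 4.0.16 (R 4.3.3, quasi-likelihood test, robust) with 1 mean for each of the 6 groups and 12 residual degrees of freedom. Adjustment of p over the 31872 genes followed Benjamini and Hochberg, and calls were made at 0.05. CPM values use the TMM factors. Ratios of counts have exact 95% intervals. Log2 CPM for shares of spread and for likeness used a prior count of 2 and genes that averaged 1 CPM or more. The antigens and the gene lists were chosen with earlier results of these data known. The text names all antigens, up to 4 genes of each list per comparison of lines with the smallest P among those called and without overlap, and after CpG the list genes past either threshold. Genes that resemble an antigen are the most similar by Pearson's r.

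Libraries with the same number pair within a line, since the series design states that each replicate series held a stimulated and an unstimulated sample. After removal of group means the pairs of HG3 correlated at 0.259, 0.212 and 0.480, those of MEC2 at 0.189, -0.0133 and 0.611, and those of PCL12 at 0.607, 0.494 and 0.515. Alternatives were DESeq2 1.42.0, limma-voom (limma 3.58.1), RLE factors, library totals, no count filter, filterByExpr, the replicate block, each library left out and PCL12 replicate 1 alone. Leaving out the 2 libraries rich in mitochondrial counts was chosen after seeing the data. The methods were tested on simulated counts. Gene positions came from GENCODE release 44 (GRCh38).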

Additional observations from a re-analysis of the deposited data

How the results depend on the processing

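The count of called antigens in PCL12 against HG3 was 5, and it was 2 with PCL12 replicate 1 alone. In MEC2 against PCL12 it was 0, and it became 1 with DESeq2, 2 without a count filter, 1 with filterByExpr, 1 with the replicate block by number and 1 without the 2 libraries rich in mitochondrial counts. CD5 was the antigen called with DESeq2 (adjusted p = 0.0049) and filterByExpr (adjusted p = 0.0333), and CD200 with the block (adjusted p = 0.0369). With each library left out in turn the counts ran from 4 to 5 in MEC2 against HG3, 5 to 5 in PCL12 against HG3, 0 to 1 in MEC2 against PCL12 and 0 to 0 after CpG. CD37 in MEC2 against HG3 was called with DESeq2 (adjusted p = 0.0365), limma-voom (adjusted p = 0.0448) and the block by number (adjusted p = 0.0276). CD52 in PCL12 against HG3 was called without a filter (1.32, adjusted p = 9.0e-05) and with that block. With the pairs of a line as a replicate block no antigen passed an adjusted p under 0.05 after CpG, and the smallest was that of CD52 in MEC2 (0.253). At the study's thresholds the block raised the count in MEC2 from 0 to 1, CD5, and it added calls of IL2RA, CD40 and CD80 in MEC2 among the listed genes.

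Over all genes, MEC2 differed from PCL12 in 654 genes, against 1411 with DESeq2, 988 with limma-voom, 1353 without a filter and 1075 without the libraries rich in mitochondrial counts. Single libraries moved this count down, to 316 without PCL12 unstimulated replicate 1, 342 without MEC2 unstimulated replicate 1 and 362 without MEC2 unstimulated replicate 2. PCL12 differed from HG3 in 3008, against 1342 with PCL12 replicate 1 alone. The replicate block gave 43, 106 and 15 genes after CpG in HG3, MEC2 and PCL12, in place of 1, 1 and 0, and no filter gave 47, 44 and 10.

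Directions that turned were among log2 values that were not called. CD24 in PCL12 against HG3 was -0.077 with DESeq2, -0.072 with RLE factors and -0.0084 with filterByExpr, and in MEC2 against PCL12 it was -0.57 with PCL12 replicate 1 alone. Without the libraries rich in mitochondrial counts, the change after CpG in HG3 was -0.34 for ROR1 and 0.63 for CD24, and in MEC2 it was -0.062 for MS4A1 and 0.035 for CD200. With limma-voom it was 0.31 for ROR1 in MEC2 and 0.21 for CD5 in PCL12. With each library left out, CD24 ran from -0.47 to 2.00 in MEC2 against HG3, from -0.63 to 1.82 in PCL12 against HG3 and from -0.50 to 0.83 in MEC2 against PCL12, and CD27 from -0.51 to 0.036 in the last. After CpG in HG3 the ranges were -0.16 to 0.61 for CD5, -0.76 to 0.12 for CD52, -0.0201 to 0.44 for CD200, -0.65 to 1.24 for ROR1 and -1.64 to 0.63 for CD24. In MEC2 they were -0.83 to 2.98 for CD5, -0.068 to 0.40 for MS4A1, -0.75 to 0.027 for CD200, -0.86 to 2.47 for ROR1 and -0.76 to 0.19 for CD24. In PCL12 they were -0.81 to 0.51 for CD52, -0.27 to 0.053 for CD37, -0.53 to 0.40 for CD24 and -0.47 to 0.074 for CD27. The cause of these turns was not tested. In MEC2, CD5 and ROR1 had 0 to 14 counts a library, so their values there rest on few counts.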
